A study of Mus musculus with 126 samples.

Results

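RNA-seq of mouse embryonic stem cells without DNA methyltransferases was compared with that of wild type cells under the vehicle alone. The members are the 4 libraries, of 126 samples in the series and 8 RNA-seq libraries, that the labels give as total RNA of DMSO-treated cells: 2 of wild type J1 cells and 2 of the triple knockout. J1 is an embryonic stem cell line, and the triple knockout (TKO) has the labelled genotype Dnmt1-/-, Dnmt3a-/-, Dnmt3b-/- in the J1 strain. Per the labels' protocols, all cultures were grown on gelatin in medium with serum and leukaemia inhibitory factor, no feeder layer being named, and all 4 received 0.0033% DMSO for 36 h. Whether the TKO line is 1 clone, and whether the 2 libraries of a group came from separate cultures, is not given in the sources used here, so p-values measure only the spread between these libraries. The same contrast in the 4 libraries given 5 ng/µl Trichostatin A (TSA), an inhibitor of histone deacetylases, is set beside it and shares no library with it. Both contrasts come from the same 2 cell lines and from 1 fit of all 8 libraries, so they are not independent.

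Cytosine methylation at CpG sites is copied after replication by Dnmt1 and laid down on new sites by Dnmt3a and Dnmt3b, the latter pair helped in germ and stem cells by the inactive cofactor Dnmt3l. Methylation of promoters is known for keeping germline-specific genes and X-linked testis families silent in somatic cells, and parental methylation marks set the expression of imprinted genes. Embryonic stem cells, unlike most differentiated cells, grow without these enzymes.

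The targeted genes were lower in TKO, and none was at 0. Dnmt3b (chr2:153649449-153687730, mm10) held 596 and 588 normalised counts scaled to library size (CPM) in wild type replicates 1 and 2 and 46.2 and 43.6 in TKO (log2 fold change -3.72 ± 0.12 SE, edgeR adjusted p = 5.35e-08). Dnmt3a (chr12:3806980-3914443) held 185 and 236 CPM in wild type and 25.9 and 26.99 in TKO (log2 fold change -3.00 ± 0.15 SE, edgeR adjusted p = 1.47e-06). For Dnmt1 (chr9:20907206-20959888) the values were 464 and 428 CPM against 134 and 126 (log2 fold change -1.78 ± 0.090 SE, edgeR adjusted p = 1.47e-06). The groups did not overlap for any of these genes, as was also so for 30.4% of all tested genes outside chromosomes 8 and 15 with TKO higher and 28.4% with TKO lower. A gene-level count does not show which exons the remaining reads came from, so it checks the labels only in direction.

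Library totals ran from 13280631 to 15542527 counts over the 8 libraries, and 15822 of 23420 genes passed the filter on low counts. Wild type replicates correlated at r = 0.993 and TKO replicates at r = 0.995 over log2 CPM of genes. Of the tested genes, 3221 (20.4%) were called at an adjusted p below 0.05, 1523 higher (9.63%) and 1698 lower (10.7%) in TKO, and 1363 (8.61%) were both called and changed at least 2-fold. Genes of chromosomes 8 and 15 are given apart, since both hold stretches that were lower in TKO. Over the 14363 tested genes elsewhere the median log2 fold change was 0.009, 1429 genes (9.95%) were higher and 1324 (9.22%) lower. Of these, 659 of the higher and 502 of the lower genes were also called in the same direction between the TSA libraries, and 11 and 13 in the opposite direction. In the TSA contrast, 10.4% of the same tested genes were higher and 7.02% lower. The number of calls fell to 1703 without wild type replicate 1, 1806 without TKO replicate 1 and 1458 without TKO replicate 2, and that of calls of at least 2-fold to 813 without wild type replicate 1 and 870 without TKO replicate 2. Counts of list members without single libraries, given below, come from these same fits, in which the calls over all genes changed too. No change particular to a list was tested. With 2 libraries a group, the smallest p of an exact permutation test of 1 gene is 0.333. The calls rest on the variance that edgeR's quasi-likelihood model shares across genes. In RNA from whole cultures, fewer cells of a type and less RNA per cell cannot be told apart.

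**Figure D1:**
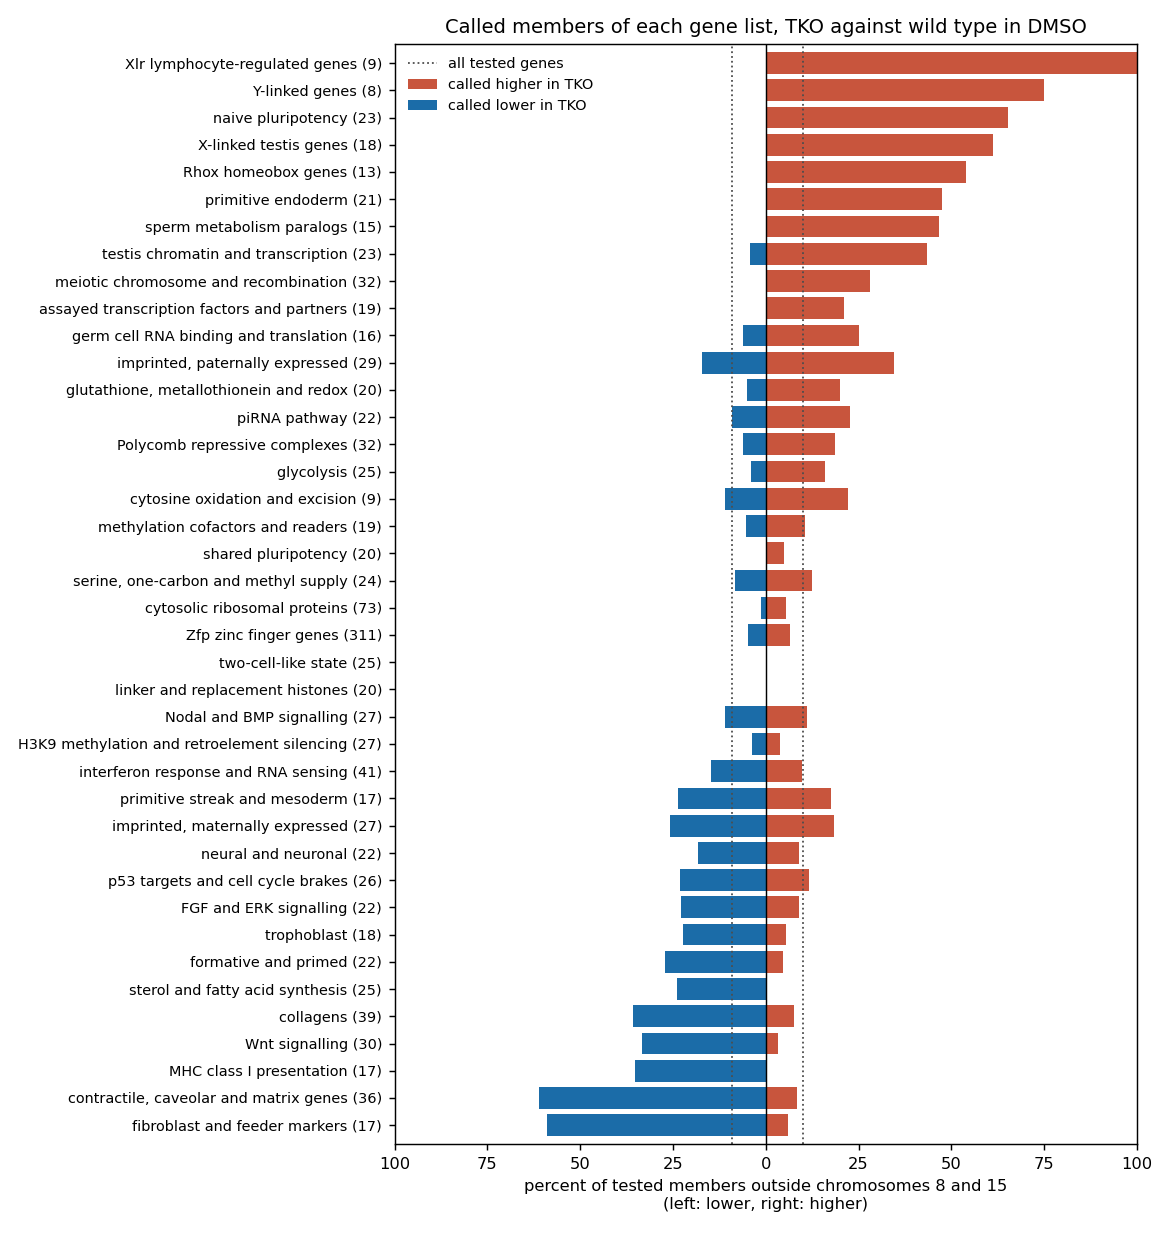
Percent of the tested members of each list shown (number in brackets) called higher (right) or lower (left) in TKO in DMSO, outside chromosomes 8 and 15, with dotted lines at the percentages of all tested genes there. Xlr, Y-linked, naive pluripotency and X-linked testis lists lie at the top with most members higher, and contractile and fibroblast lists at the bottom with most members lower. Of the genes called higher, 6 Xlr, 5 X-linked testis and 1 Y-linked had at most 3 counts in each wild type library.

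Germline genes rose in TKO more often than they fell. Among 178 germline genes found in the table from 6 lists, 141 passed the filter and 126 of them lay outside chromosomes 8 and 15. Of the 126, 46 (36.5%) were higher and 4 (3.17%) lower, beside 9.95% and 9.22% of all tested genes outside those chromosomes. The median log2 fold change was 0.40 beside 0.009 for all those genes. Of the 126, 8 had at most 3 counts in each wild type library and reached the test through other libraries, and 5 of these 8 were among the 46.

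In the piRNA pathway, which silences transposons in the male germline, 5 of 22 tested genes (22.7%) were higher and 2 (9.09%) lower. The shares of all genes outside chromosomes 8 and 15 were 9.95% and 9.22%, so the lower share was near that of all genes. Asz1 (chr6:18050964-18109061), a mitochondrial scaffold protein of this pathway, had 0.428 and 0.729 CPM in the wild type libraries and 16.3 and 18.5 in TKO (log2 fold change 4.91 ± 0.37 SE, edgeR adjusted p = 1.42e-05). Fkbp6 (chr5:135291704-135349991), a co-chaperone needed for loading small RNAs, had 1.93 and 4.29 CPM in wild type and 54.4 and 57.5 in TKO (log2 fold change 4.19 ± 0.24 SE, edgeR adjusted p = 4.14e-06). Both genes were low in both wild type libraries and far apart from TKO, non-overlap being a condition for naming them. The helicase gene Tdrd9 followed with 0.642 and 1.54 against 5.33 and 7.27 CPM (log2 fold change 2.55). In the other direction, the scaffold gene Tdrd1 (chr19:56826209-56870012) fell from 13.1 and 10.05 CPM to 1.98 and 1.75 (log2 fold change -2.63 ± 0.27 SE, edgeR adjusted p = 0.000123). Tdrd12 and Rnf17, the members not called with the highest level per kilobase, differed by 0.39 and 0.006 (log2). The number of lower genes was 1 without wild type replicate 1, 1 without TKO replicate 1 and 1 without TKO replicate 2, and that of higher genes 8 without wild type replicate 2.

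Of 32 tested genes of meiotic chromosomes and recombination, 9 (28.1%) were higher and 0 lower by edgeR, beside 9.95% and 9.22% of all genes. No member was lower at an unadjusted p below 0.05 or by DESeq2 either, and the same holds for each count of 0 by edgeR below that has no other value beside it. Hormad1 (chr3:95559677-95587671), a protein of the meiotic chromosome axis, rose from 5.57 and 11.02 CPM to 44.7 and 40.7 (log2 fold change 2.38 ± 0.30 SE, edgeR adjusted p = 0.000361). The synaptonemal complex gene Syce1 rose from 18.3 and 20.5 to 48.01 and 50.04 CPM (log2 fold change 1.34), and Hsf2bp, a partner of the recombination machinery, from 42.95 and 56.2 to 119.8 and 117 CPM (log2 fold change 1.26). Wild type replicate 2 lay above replicate 1 for these 3 genes, and both stayed below TKO, which was a condition for naming them. Tex12, another synaptonemal complex gene, stood at 0.0713 and 0.324 CPM in wild type and 2.12 and 1.31 in TKO. The checkpoint ATPase gene Trip13 differed by -0.063 and the synaptonemal complex gene Syce2 by 0.13 (log2), and neither was called. Without each library in turn, 6 to 12 members were higher, and 1 was lower without wild type replicate 1. Without wild type replicate 1 the edgeR adjusted p was 0.0764 for Tex12, and without TKO replicate 1 the edgeR adjusted p was 0.0592 for Tex12.

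Germ cell RNA-binding proteins and testis chromatin factors also included genes that rose 13.7-fold and 18.5-fold. Dazl (chr17:50279394-50293599), a translational regulator of germ cells, had 8.42 and 12.3 CPM in wild type and 134 and 148 in TKO (log2 fold change 3.77 ± 0.32 SE, edgeR adjusted p = 2.85e-05). Among 16 tested RNA-binding genes 4 (25%) were higher and 1 (6.25%) lower, beside 9.95% and 9.22% of all genes. The lower was Rbm46, a meiotic RNA-binding protein, at 6.06 and 4.94 CPM against 1.30 and 1.24 (log2 fold change -2.11). The germ cell kinase gene Stk31 rose from 17.98 and 27.9 to 64.6 and 57.8 CPM, and Rpl39l, a testis paralog of a ribosomal protein, from 29.04 and 37.9 to 112 and 112 CPM (log2 fold changes 1.42 and 1.75). Per kilobase of exon, Rpl39l was among the 5 called genes with the largest gain, from 41.6 to 139.5 CPM per kb. Among 23 testis chromatin and transcription genes 10 (43.5%) were higher and 1 (4.35%) lower. Scml2 (chrX:161162772-161258213), a germline Polycomb protein encoded on the X, rose from 6.92 and 8.91 to 135 and 156 CPM (log2 fold change 4.21 ± 0.26 SE, edgeR adjusted p = 6.04e-06). Ctcfl, the testis paralog of the insulator protein CTCF, rose from 1.14 and 1.62 to 12.9 and 18.5 CPM (log2 fold change 3.51). Sohlh2, a transcription factor of early germ cells, rose from 10.1 and 14.9 to 40.1 and 62.1 CPM (log2 fold change 2.04). The general factor paralog Tbpl1 and the reader Zcwpw1 differed by -0.27 and 0.43 (log2) and were not called. The lower RNA-binding count was 2 without wild type replicate 2, and the lower testis chromatin count was 0 without wild type replicate 2, 0 without TKO replicate 1 and 0 without TKO replicate 2.

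Sperm-specific paralogs of metabolic and structural genes were higher in 7 of 15 tested members (46.7%) and lower in 0 by edgeR. The shares of all genes were 9.95% and 9.22%. The median log2 fold change of the 15 was 1.21. Tuba3b, an alpha tubulin of testis, held 0.428 and 1.94 CPM in wild type and 26.1 and 38.5 in TKO (log2 fold change 4.81). Its near-identical paralog Tuba3a held 3.42 and 8.83 CPM in wild type and 29.8 and 35.4 in TKO (log2 fold change 2.43), and since reads may be split between such copies, the separate values are uncertain. Cox7b2, a testis form of a respiratory chain subunit, rose from 0.713 and 1.05 to 11.6 and 10.1 CPM (log2 fold change 3.62). Cox6b2 and Zp3, the latter a component of the egg coat, were not called at 0.10 and 0.33 (log2). The higher count was 4 without wild type replicate 1 and 4 without TKO replicate 2.

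**Figure D2:**
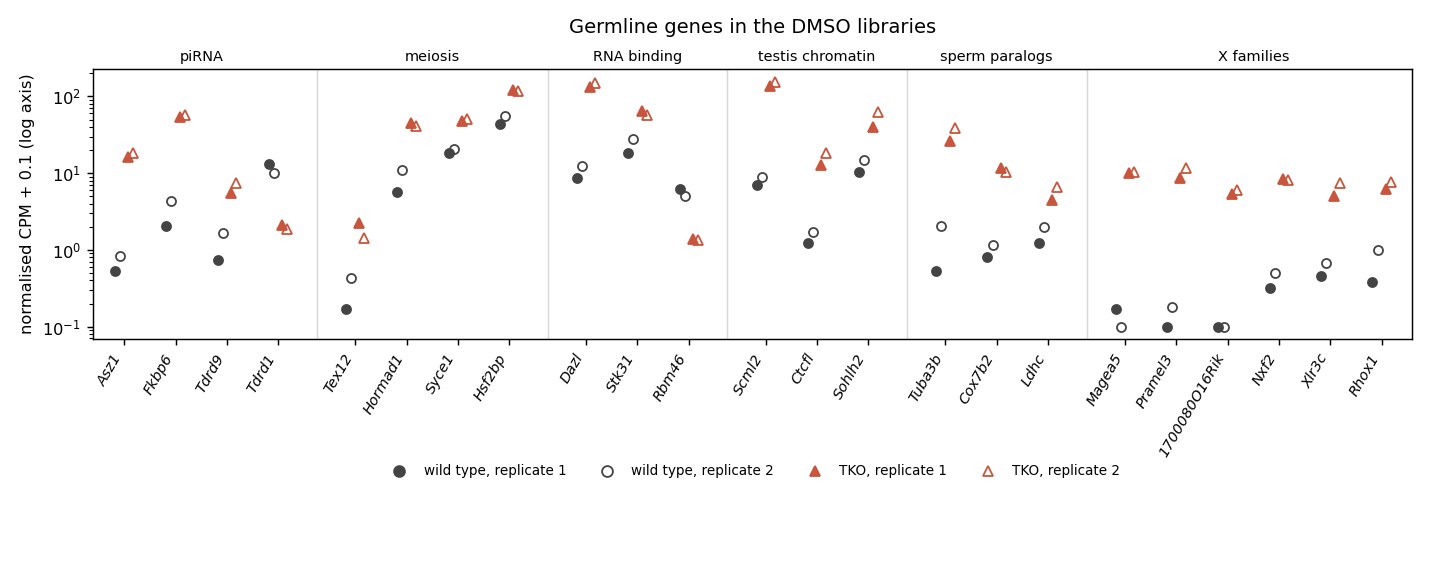
Normalised CPM plus 0.1 on a log axis for germline genes in the 4 DMSO libraries, by function, with circles for wild type and triangles for TKO and replicate 2 as open symbols. TKO lies above wild type in each gene shown except Tdrd1 and Rbm46, and in the X-linked genes at the right wild type lies below 1 CPM. The absence of overlap was a condition for naming these genes.

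The genes with the highest fitted rises lay on the X chromosome. By the naming rule, the 10 called genes with the largest fitted fold change outside chromosomes 8 and 15 all lay on the X: 1700080O16Rik, Gm773, Magea2, Magea5, Pramel3, 4930550L24Rik, 1700019B21Rik, Magea6, Magea8 and Magea3. Each had at most 3 counts in each wild type library, so only a lower bound of the fold is given, taken against 3 counts per library, and their rank above genes with measured wild type levels, such as Asz1, is not established. 1700080O16Rik (chrX:51968695-51972772) had 0 and 0 counts in wild type and 76 and 82 in TKO, at least 24.4-fold higher (edgeR adjusted p = 1.13e-05). Magea5 (chrX:155053061-155061553), a melanoma antigen gene, had 1 and 0 counts in wild type and 147 and 141 in TKO, at least 44.4-fold higher (edgeR adjusted p = 1.90e-05). Pramel3 (chrX:135302316-135312636), of the family of leucine-rich testis antigens, had 0 and 1 counts in wild type and 125 and 158 in TKO, at least 43.8-fold higher. Floors and counting intervals cover counting error only.

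X-linked families held many of these calls. The share called higher was 9.95% over all genes outside chromosomes 8 and 15 and 13.9% over the X. All 7 tested Magea genes were higher, of 8 in the table, and 6 of the 7 were at the wild type floor, so that they could enter the test only through a group where they were present. All 9 Xlr genes, a lymphocyte-regulated family related to a synaptonemal complex protein, were tested and higher, 6 of them from the wild type floor. Xlr3c rose from 0.357 and 0.567 to 4.92 and 7.35 CPM (log2 fold change 3.72). Of 31 Rhox genes, homeobox genes of the reproductive tract, 18 were too low to test and 7 of the other 13 were higher, 4 of the 7 from the wild type floor. Rhox1 rose from 0.285 and 0.891 to 6.09 and 7.56 CPM (log2 fold change 3.56), while Rhox5 (30.3 and 51.5 against 60.2 and 85.7 CPM) and Rhox6 (4.14 and 9.64 against 8.75 and 11.6 CPM) were not called. Magea, Xlr and Rhox2 genes are near-identical copies, so the count of each copy is uncertain. The Xlr count was 5 without wild type replicate 1, and the Rhox count 4 without wild type replicate 1.

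Among 29 further X-linked testis genes 18 were tested and 11 of them (61.1%) higher, with 0 lower by edgeR, beside 9.95% and 9.22% of all genes. Of the 18, 7 had at most 3 counts in each wild type library and reached the test through other libraries. Among the 11 were 5 of these 7. Nxf2 (chrX:134944531-134964754), a germ cell mRNA export factor, rose from 0.214 and 0.405 CPM to 8.34 and 8.00 (log2 fold change 4.71 ± 0.37 SE, edgeR adjusted p = 1.68e-05). Pet2 had 2 and 1 counts in wild type and 53 and 45 in TKO, at least 15.1-fold higher. Tex16 and Cypt3 were not called, at 0.62 and 0.060 (log2). The 6 Mage genes outside the A and B groups, which are active in many tissues, included 0 called by edgeR (3 lower at an unadjusted p below 0.05, 0 by DESeq2, and 1 lower without wild type replicate 2), with a median log2 fold change of -0.31.

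The bases just upstream of the annotated starts are shown for 6 of these genes because they range from CpG-rich to CpG-free and all 6 genes rose. Each line gives the 150 bases before the start, 5′ to 3′ on the gene's strand, from RefSeq promoters of GRCm38.p6, with CpG dinucleotides in capitals. They are Asz1 (chr6:18109062-18109211, minus strand), Dazl (chr17:50293621-50293770, minus strand), Hormad1 (chr3:95559527-95559676, plus strand), Nxf2 (chrX:134964755-134964904, minus strand), 1700080O16Rik (chrX:51972773-51972922, minus strand) and Magea5 (chrX:155061554-155061703, minus strand).
Asz1: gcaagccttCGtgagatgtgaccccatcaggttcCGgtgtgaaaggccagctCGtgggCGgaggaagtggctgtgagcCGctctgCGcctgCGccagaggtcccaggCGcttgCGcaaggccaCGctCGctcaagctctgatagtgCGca
Dazl: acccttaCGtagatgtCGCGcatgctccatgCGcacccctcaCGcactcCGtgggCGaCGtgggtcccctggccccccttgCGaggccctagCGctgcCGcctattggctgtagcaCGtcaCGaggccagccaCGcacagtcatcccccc
Hormad1: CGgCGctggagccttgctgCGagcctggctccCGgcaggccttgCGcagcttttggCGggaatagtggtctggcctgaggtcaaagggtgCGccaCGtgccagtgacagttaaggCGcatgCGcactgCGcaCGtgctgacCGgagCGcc
Nxf2: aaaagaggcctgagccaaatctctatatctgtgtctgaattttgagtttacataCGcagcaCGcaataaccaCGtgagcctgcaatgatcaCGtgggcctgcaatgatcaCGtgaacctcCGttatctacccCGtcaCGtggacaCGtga
1700080O16Rik: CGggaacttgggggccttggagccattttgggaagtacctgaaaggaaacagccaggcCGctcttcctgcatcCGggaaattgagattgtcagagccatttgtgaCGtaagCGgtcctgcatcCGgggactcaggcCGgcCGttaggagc
Magea5: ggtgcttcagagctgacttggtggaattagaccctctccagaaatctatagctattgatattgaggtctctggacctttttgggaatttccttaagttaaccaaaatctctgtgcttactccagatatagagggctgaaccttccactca

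Hormad1 and Dazl each held 14 CpG in these 150 bases, Asz1 12, Nxf2 9, 1700080O16Rik 8 and Magea5 0. Of 68 genes of the germline lists and the Magea, Xlr and Rhox families called higher outside chromosomes 8 and 15, 60 had a RefSeq promoter whose start lay within 50 bases of the deposited one. Over the 300 bases of these 60 promoters, the number of CpG ran from 0 to 36 with a median of 10, 3 promoters had none, and the median ratio of observed to expected CpG was 0.50. Of 6 motifs, searched as exact letters on both strands of the same 300 bases, the E-box CACGTG, bound by factors such as MAX, lay in 8 of the 60 (13.3%). It lay in 15 of 56 (26.8%) matched promoters of tested genes of the same lists and families that were not called higher, in 10.04% of the promoters of the 10772 tested genes with a match, and in 7.15% of all 32851 RefSeq promoters of that length. For the other motifs, 2 counts are given for the 60 and the 56 and then 2 percentages for the 10772 and for all promoters. The palindromic NRF1 motif lay in 4 and 1 promoters, 1.94% and 0.971%, and the E2F motif GCGGGA in 13 and 23, 35.5% and 20.0%. The SP1 motif GGGCGG lay in 17 and 28, 63.4% and 35.7%. The GABPA motif CCGGAAGT lay in 6 and 5, 7.97% and 3.89%, and the YY1 motif in 0 and 0, 1.49% and 0.633%. The 10772 held each of the 6 motifs more often than all RefSeq promoters did. Nxf2 held E-boxes 80, 61, 42, 15 and 7 bases before its start, and Hormad1 held E-boxes at 57 and 20 and an NRF1 motif at 36. A match is a string of letters and was not tested as a binding site. Only 68.1% of all tested genes had a matched promoter, and 65.1% of the 86 not called higher in these lists and families, which voids any comparison of CpG content or motifs between called and other genes.

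Imprinted genes moved in both directions. Of 56 tested outside chromosomes 8 and 15, 15 (26.8%) were higher and 12 (21.4%) lower, beside 9.95% and 9.22% of all genes there. The higher and lower counts were 5 and 7 of 27 maternally expressed genes and 10 and 5 of 29 paternally expressed ones. The maternally expressed counts were 2 without wild type replicate 1, 3 without TKO replicate 1 and 2 without TKO replicate 2 for higher genes and 4 without wild type replicate 1 and 4 without TKO replicate 1 for lower genes, and that of higher paternally expressed genes was 5 without TKO replicate 1. At the H19/Igf2 locus the reciprocal pair changed in opposite directions. H19 (chr7:142575532-142578146), a maternally expressed non-coding RNA, rose from 34.5 and 73.4 CPM to 267 and 425 (log2 fold change 2.69 ± 0.40 SE, edgeR adjusted p = 0.00108), with 3.21% of its exon length overlapping another gene. Igf2 (chr7:142650768-142661035), the paternally expressed growth factor beside it, fell from 62.8 and 80.1 CPM to 9.58 and 9.97 (log2 fold change -2.87 ± 0.26 SE, edgeR adjusted p = 4.67e-05). Between the TSA libraries the log2 differences were 3.43 and -2.35.

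Other imprinted genes fell sharply in DMSO. Grb10 (chr11:11930499-12037420), an adaptor that limits insulin and growth factor signalling, fell from 466 and 425 CPM to 132 and 121 (log2 fold change -1.81 ± 0.11 SE, edgeR adjusted p = 4.61e-06). Nnat, a paternally expressed membrane proteolipid gene, fell from 71.7 and 40.1 to 17.9 and 12.7 CPM and Sfmbt2, a Polycomb-related gene, from 313 and 238 to 97.4 and 106 CPM (log2 fold changes -1.87 and -1.44). Cdkn1c, a brake on the cell cycle, stood at 72.99 and 93.3 CPM against 37.1 and 34.99 (log2 fold change -1.20). In the TSA libraries the log2 differences of Grb10, Nnat and Cdkn1c were -0.11, -0.10 and 0.35. Among the rises, Dlk1, an inhibitor related to Notch ligands, went from 3.71 and 4.05 to 8.82 and 9.97 CPM (log2 fold change 1.27). The 40 tested genes that follow it on chromosome 12 (chr12:109540996-109734902), which begin with Meg3 and include Rian and many microRNA genes of the maternally expressed cluster, had the highest median of the 359 windows outside chromosomes 8 and 15. It was 0.78 in DMSO and 0.37 in TSA (log2), and 4 of the 40 were called, all higher, a share close to the 9.95% of all genes outside those chromosomes. Cd81, Nap1l4 and Impact were not called at -0.14, -0.27 and 0.16 (log2). The count of higher imprinted genes was 9 without wild type replicate 1, 8 without TKO replicate 1 and 9 without TKO replicate 2.

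Genes of the naive pluripotent state were higher in TKO, whereas 1 of the shared pluripotency factors was called. Of 23 tested naive genes outside chromosomes 8 and 15, 15 (65.2%) were higher and 0 lower by edgeR, beside 9.95% and 9.22% of all genes there. The median log2 fold change of the 23 was 0.60. Nanog (chr6:122707568-122713778), a core factor of that state, had 237 and 265 CPM in wild type and 375 and 465 in TKO (log2 fold change 0.74 ± 0.12 SE, edgeR adjusted p = 0.00155). Prdm14, a repressor of differentiation that also acts in germ cell specification, rose from 14.1 and 18.6 to 30.03 and 39.4 CPM, and the T-box factor Tbx3 from 17.6 and 21.96 to 40.8 and 48.6 CPM (log2 fold changes 1.09 and 1.18). The junction protein gene Jam2 rose from 82.8 and 113 to 215 and 237 CPM (log2 fold change 1.21). For these genes wild type replicate 2 lay nearer to TKO than replicate 1. Fbxo15 and Spp1 were not called at 0.59 and 0.24 (log2). The count of naive genes was 6 without wild type replicate 1 and 4 without TKO replicate 2. In the TSA libraries 11 of the 23 were higher and 2 lower, beside 10.4% and 7.02% of all genes in TSA.

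Of 20 shared pluripotency genes 1 was higher and 0 lower by edgeR (3 lower at an unadjusted p below 0.05, 1 by DESeq2), the higher being the zinc finger gene Zfp296 at 30.2 and 32.3 against 37.9 and 52.2 CPM. Pou5f1 (Oct4), the central factor of pluripotency, stood at 935 and 890.3 CPM in wild type and 933 and 949 in TKO (log2 fold change 0.043 ± 0.13 SE). Among 22 genes of the formative and primed states 1 (4.55%) was higher and 6 (27.3%) were lower, beside 9.95% and 9.22% of all genes. The kinase gene Pim2 fell from 25.3 and 25.5 to 11.3 and 9.02 CPM (log2 fold change -1.32), and Dusp6, a phosphatase induced by ERK signalling, from 158 and 147 to 91.4 and 72.01 CPM (log2 fold change -0.90). Lefty1 and Lefty2, Nodal inhibitors, were not called at 0.10 and 0.99 (log2). Genes of the Zscan4-positive, totipotent-like state included 0 of 25 called in either direction by edgeR (2 lower at an unadjusted p below 0.05 and by DESeq2), at a median of -0.092, while 14 of the 25 were higher in TKO between the TSA libraries. The count of lower formative genes was 2 without wild type replicate 1 and 2 without TKO replicate 2, and that of higher ones 0 without wild type replicate 1, 0 without TKO replicate 1 and 0 without TKO replicate 2. Without wild type replicate 1 the edgeR adjusted p was 0.146 for Zfp296, and without TKO replicate 2 the edgeR adjusted p was 0.293 for Zfp296. The number of higher shared genes was 0 without wild type replicate 1, 3 without wild type replicate 2 and 0 without TKO replicate 2, and 1 was lower without wild type replicate 2.

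**Figure D3:**
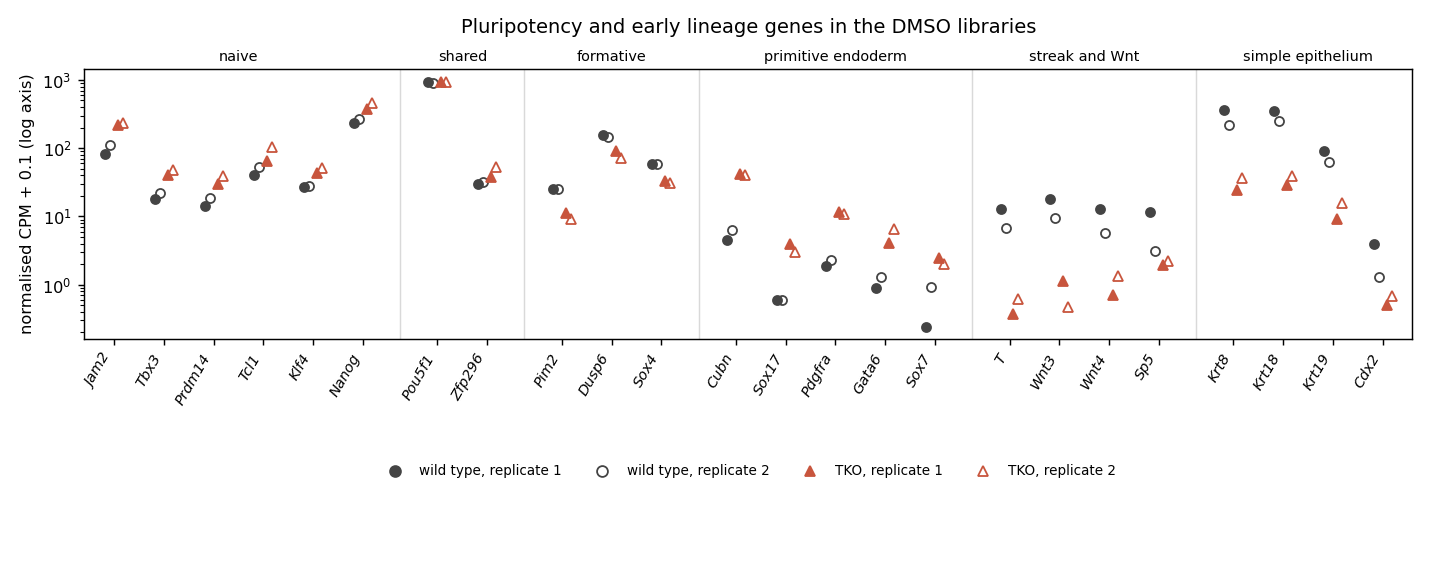
Normalised CPM plus 0.1 on a log axis for pluripotency and early lineage genes in the 4 DMSO libraries, with circles for wild type, triangles for TKO and open symbols for replicate 2. Naive and primitive endoderm genes lie higher in TKO, Pou5f1 overlaps, and streak, Wnt and keratin genes lie lower in TKO, with wild type replicate 1 above replicate 2.

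Primitive endoderm genes were higher in TKO at low absolute levels. This lineage forms the yolk sac and can arise in stem cell cultures. Of 21 tested members 10 (47.6%) were higher and 0 lower by edgeR (1 lower at an unadjusted p below 0.05, 0 by DESeq2). The shares of all genes were 9.95% and 9.22%. The median log2 fold change of the 21 was 1.11. Cubn (chr2:13276338-13491876), an endocytic receptor of the yolk sac, rose from 4.35 and 6.32 CPM to 41.2 and 40.95 (log2 fold change 2.95 ± 0.21 SE, edgeR adjusted p = 1.03e-05). Among the lineage's transcription factors, Gata6 rose from 0.785 and 1.22 to 3.97 and 6.55 CPM and Sox17 from 0.499 and 0.486 to 3.90 and 2.91 (log2 fold changes 2.39 and 2.77). Its receptor tyrosine kinase gene Pdgfra rose from 1.78 and 2.19 to 11.6 and 10.9 CPM (log2 fold change 2.51). Both TKO libraries lay above both wild type libraries for each of these 4 genes, which was a condition for naming them. Apoe and Sparc, abundant genes that this lineage shares with others, were not called at 0.29 and -0.13 (log2). In the TSA libraries 10 of 21 members were higher and 1 lower, beside 10.4% and 7.02% of all genes in TSA. The higher count without each library in turn ran from 7 to 10.

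Of 30 tested Wnt pathway genes 1 (3.33%) was higher and 10 (33.3%) lower, at a median of -0.31 (log2). The 17 genes of the primitive streak and mesoderm had 3 (17.6%) higher and 4 (23.5%) lower, at a median of -0.12 (log2). The shares of all genes outside chromosomes 8 and 15 were 9.95% and 9.22%. T (chr17:8434423-8442496), the brachyury factor of the streak, fell from 12.8 and 6.56 CPM to 0.274 and 0.509 (log2 fold change -4.62 ± 0.56 SE, edgeR adjusted p = 0.000319). Wnt3 (chr11:103774175-103818021), the ligand that starts the streak, fell from 18.2 and 9.24 CPM to 1.03 and 0.364 (log2 fold change -4.28 ± 0.46 SE, edgeR adjusted p = 0.000148), and Wnt4 from 12.9 and 5.67 to 0.616 and 1.24 CPM (log2 fold change -3.34). The 2 wild type libraries differed among themselves here, replicate 1 being higher than replicate 2 for T, Wnt3 and Wnt4. Both lay above TKO, which was a condition for naming these genes. The central effector Ctnnb1 and the receptor Lgr4 were not called at 0.093 and -0.048 (log2). The count of lower Wnt genes was 5 without wild type replicate 1, 6 without TKO replicate 1 and 5 without TKO replicate 2. In the TSA libraries 2 Wnt genes were higher and 3 lower, at a median of -0.14 (log2), beside 10.4% and 7.02% of all genes in TSA. Among the higher streak and mesoderm genes was Isl1, a cardiac and neural factor, at 0.785 and 0.810 against 3.76 and 2.40 CPM. The streak and mesoderm counts were 1 without wild type replicate 1, 1 without wild type replicate 2 and 1 without TKO replicate 1 for higher genes, and 2 without wild type replicate 1 and 2 without TKO replicate 1 for lower genes.

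Trophoblast and neural markers had fewer calls. Of 18 trophoblast genes outside chromosomes 8 and 15, 1 was higher and 4 were lower, the simple-epithelium keratin Krt19 falling from 90.2 and 62.96 to 9.03 and 15.6 CPM (log2 fold change -2.64). Cdh3 and Tfap2c were not called at 0.012 and 0.20 (log2). Of 22 neural genes 2 (9.09%) were higher and 4 (18.2%) lower, beside 9.95% and 9.22% of all genes. Nes, an intermediate filament of neural progenitors, fell from 214 and 134 to 64.6 and 54.6 CPM, and the growth cone gene Gap43 from 25.7 and 29.9 to 11.01 and 9.09 CPM (log2 fold changes -1.54 and -1.46). In the TSA libraries the log2 differences were -0.11 and -4.03. The single higher trophoblast call was 0 without wild type replicate 1, 2 without wild type replicate 2 and 0 without TKO replicate 2, and the neural counts were 1 without wild type replicate 1, 1 without TKO replicate 1 and 1 without TKO replicate 2 for higher genes and 7 without wild type replicate 2 for lower genes.

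In FGF and ERK signalling, which drives exit from the naive state, 2 of 22 tested genes (9.09%) were higher and 5 (22.7%) lower outside chromosomes 8 and 15. The shares of all genes there were 9.95% and 9.22%. The immediate early factor Jun fell from 20.05 and 16.9 to 8.07 and 7.42 CPM (log2 fold change -1.26). Spred1 and Spry4, inhibitors of the pathway, were not called at -0.36 and 0.28 (log2). Of 27 Nodal and BMP genes 3 were higher and 3 lower, beside 9.95% and 9.22% of all genes, and the higher count was 1 without TKO replicate 1. Id3, a target of BMP signalling, fell from 77.2 and 46.3 to 28.4 and 24.1 CPM, and Pcsk6, a convertase that processes Nodal, rose from 50.8 and 43.7 to 81.4 and 83.4 CPM (log2 fold changes -1.24 and 0.80). The FGF and ERK counts were 0 without wild type replicate 1, 1 without TKO replicate 1 and 0 without TKO replicate 2 for higher genes and 2 without wild type replicate 1 and 3 without TKO replicate 2 for lower genes.

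Of the 36 lists, contractile, caveolar and matrix genes had the largest share of lower members outside the targeted enzymes. Of 36 tested members 22 (61.1%) were lower and 3 (8.33%) higher, beside 9.22% and 9.95% of all genes. The median log2 fold change of the 36 was -1.16. Cav1 (chr6:17306335-17341328), the main protein of caveolae, had 267 and 151 counts in wild type and 2 and 1 in TKO, at least 73.9-fold lower against a floor of 3 counts per library (edgeR adjusted p = 8.10e-06). Tagln (chr9:45929628-45936058), an actin cross-linker of smooth muscle, fell from 351 and 153 CPM to 20.5 and 7.64 (log2 fold change -4.15 ± 0.59 SE, edgeR adjusted p = 0.000764), with 5.99% of its exon length overlapping another gene. Tpm1, a tropomyosin, fell from 916 and 548 to 191 and 142 CPM (log2 fold change -2.14). The matrix glycoprotein gene Thbs1 fell from 272 and 125 to 15.2 and 8.66 CPM and the annexin gene Anxa3 from 116 and 61.5 to 8.41 and 5.60 CPM (log2 fold changes -4.05 and -3.66). In each of these 5 genes wild type replicate 1 was above replicate 2. Replicate 2 was above both TKO libraries, which was a condition for naming these genes. Vim and S100a10 were not called at -0.27 and -0.16 (log2). The summed level of the 38 listed was 7432 and 4832 CPM in the wild type libraries and 2992 and 2815 in TKO. Without each library in turn, 18 to 24 members were lower.

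Fibroblast and feeder markers moved with that list. Of 17 markers tested outside chromosomes 8 and 15, 10 (58.8%) were lower and 1, Twist1, was higher, beside 9.22% and 9.95% of all genes there. The median of the 17 was -1.47 (log2). The summed level of the 22 listed was 400.3 and 313 CPM in wild type and 192 and 171 in TKO. Col1a1 (chr11:94936270-94951856), the main collagen of fibroblasts, had 12.1 and 12.7 CPM in wild type and 0.684 and 0.655 in TKO (log2 fold change -4.19 ± 0.42 SE, edgeR adjusted p = 0.000101). Col1a2 fell from 11.3 and 18.1 to 1.09 and 1.60 CPM (log2 fold change -3.44). Col3a1 had 73 and 40 counts in wild type and 1 and 1 in TKO, at least 19.96-fold lower. Lox, which cross-links collagen, fell from 4.21 and 2.67 to 0.479 and 0.436 CPM (log2 fold change -2.89). The microfibril gene Fbn1 and the surface marker Thy1 were not called, at 46.7 and 28.03 against 24.7 and 21.9 CPM and 3.35 and 5.59 against 3.63 and 3.35 CPM. The fibroblast protease genes Fap and Mmp3 were at 0 counts in all 4 libraries, where a count of 0 allows up to 0.243 CPM. The part of fibroblast-like cells in the fall of the contractile list was not tested. Over the collagen genes, 14 of 39 tested outside chromosomes 8 and 15 were lower and 3 higher. The collagen counts were 9 without wild type replicate 1 for lower genes and 1 without TKO replicate 2 for higher genes.

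**Figure D4:**
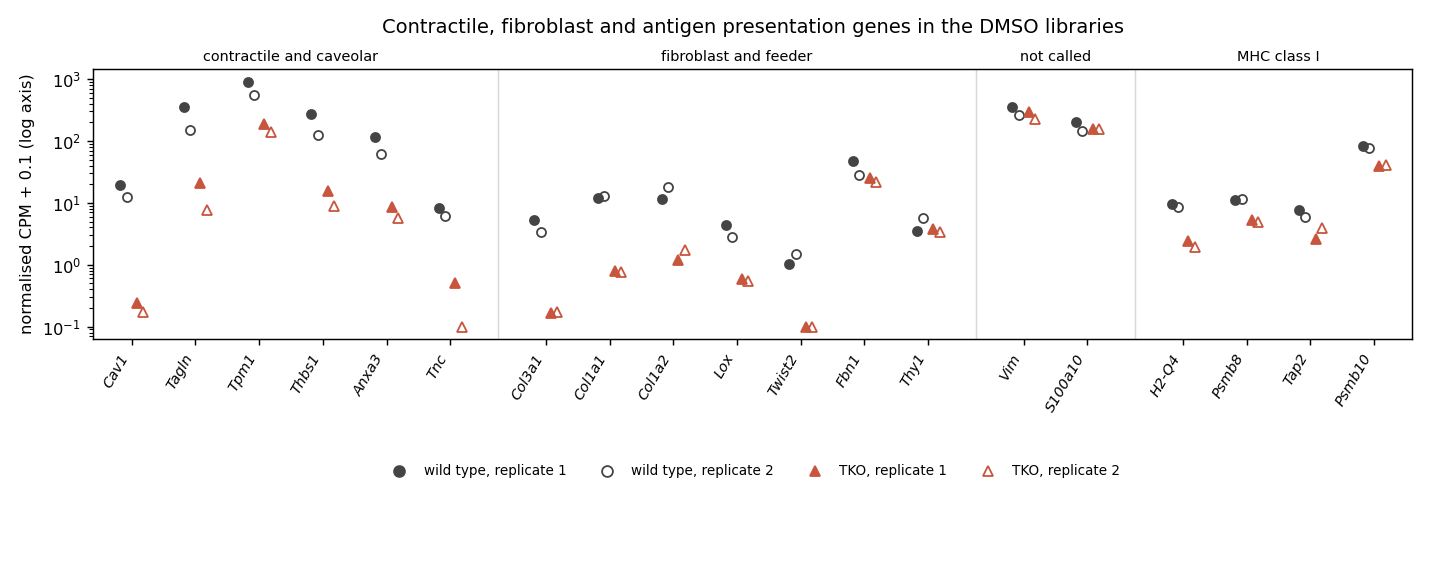
Normalised CPM plus 0.1 on a log axis for contractile, fibroblast and antigen presentation genes in the 4 DMSO libraries, with circles for wild type, triangles for TKO and open symbols for replicate 2. For Cav1, Tagln, Tpm1, Thbs1, Anxa3 and Tnc wild type replicate 1 lies above replicate 2. Both lie above TKO, which was a condition for naming called genes, while for Vim, Thy1 and S100a10 the groups overlap.

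Among immune genes, interferon-stimulated and RNA-sensing genes were higher in 4 (9.76%) and lower in 6 (14.6%) of 41 tested, at a median of 0.046. Over all genes outside chromosomes 8 and 15 the shares were 9.95% and 9.22%. Gbp2, an interferon-induced GTPase, fell from 101 and 69.5 to 17.99 and 16.1 CPM (log2 fold change -2.32), and the related Gbp3 from 17.5 and 18.5 to 6.98 and 8.36 CPM (log2 fold change -1.23). Ifitm3 and Bst2, abundant interferon-induced genes, were not called at 0.006 and 0.002 (log2). In MHC class I presentation 6 of 17 tested genes (35.3%) were lower and 0 higher by edgeR, at a median of -0.49. H2-Q4, a class I gene with close paralogs and so an uncertain count, fell from 9.35 and 8.51 to 2.33 and 1.82 CPM, and the immunoproteasome gene Psmb8 from 11.2 and 11.6 to 5.27 and 4.80 CPM (log2 fold changes -2.10 and -1.18). The lower MHC count was 3 without wild type replicate 1, 2 without TKO replicate 1 and 3 without TKO replicate 2, and the interferon counts were 2 without wild type replicate 1 and 2 without TKO replicate 2 for higher genes and 3 without wild type replicate 1, 3 without TKO replicate 1 and 3 without TKO replicate 2 for lower genes.

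Among the cofactors and readers of DNA methylation 2 of 19 (10.5%) were higher and 1 (5.26%) lower, beside 9.95% and 9.22% of all genes. Dnmt3l (chr10:78042287-78063615), the cofactor of the deleted de novo enzymes, rose from 343 and 334 CPM to 747 and 670.5 (log2 fold change 1.07 ± 0.12 SE, edgeR adjusted p = 0.000179), the largest gain per kilobase of exon among called genes outside chromosomes 8 and 15, from 179.6 to 376 CPM per kb. Uhrf1, which guides Dnmt1 to replicated DNA, and the remodeller Hells were not called at 0.24 and -0.037 (log2). Of 9 genes of cytosine oxidation and excision 2 were higher and 1 lower. Idh1, an enzyme that makes the cosubstrate of the Tet oxidases, rose from 166 and 189 to 325 and 330.1 CPM (log2 fold change 0.88) and its mitochondrial relative Idh2 from 128 and 136 to 208 and 223 CPM (log2 fold change 0.71). The DNA glycosylase gene Neil2 fell from 12.7 and 15.3 to 7.80 and 8.29 CPM (log2 fold change -0.80), and Tet1 differed by 0.36 and was not called. Without TKO replicate 1 the edgeR adjusted p was 0.0683 for Neil2, and without TKO replicate 2 the edgeR adjusted p was 0.0526 for Neil2. The counts of cofactors and readers were 1 without wild type replicate 2, 1 without TKO replicate 1 and 1 without TKO replicate 2 for higher genes and 0 without wild type replicate 1, 2 without wild type replicate 2, 0 without TKO replicate 1 and 0 without TKO replicate 2 for lower genes.

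Other chromatin lists varied in their share of calls. Polycomb genes were higher in 6 (18.8%) and lower in 2 (6.25%) of 32 tested, beside 9.95% and 9.22% of all genes. Phf19, an accessory subunit that binds methylated histone tails, rose from 9.63 and 12.8 to 25.2 and 24.3 CPM, and Bmi1, a ring-finger subunit, from 18.3 and 15.1 to 37.5 and 29.6 CPM (log2 fold changes 1.14 and 1.01). The core subunit Eed differed by -0.039 (log2) and was not called. Of 27 genes of lysine 9 methylation of histone H3 and retroelement silencing, 1 was higher and 1, the methyltransferase gene Suv39h1, lower. Without wild type replicate 1 the edgeR adjusted p was 0.0520 for Suv39h1, and without TKO replicate 2 the edgeR adjusted p was 0.0741 for Suv39h1. The count of higher genes was 3 without wild type replicate 2. The higher was Zfp809, a zinc finger repressor of retroviral DNA, at 31.96 and 38.8 against 63.8 and 68.5 CPM (log2 fold change 0.90), and the corepressor Trim28 differed by 0.049 (log2). Linker and replacement histones had 0 of 20 called by edgeR (1 higher and 3 lower at an unadjusted p below 0.05, 0 by DESeq2), and 1 in each direction without wild type replicate 2. Of 311 zinc finger genes named Zfp, 20 (6.43%) were higher and 15 (4.82%) lower, beside 9.95% and 9.22% of all genes. Of 19 of the factors assayed elsewhere in the series and their partners, 4 were higher and 0 lower by edgeR, a count of 0 without wild type replicate 1, 2 without TKO replicate 1 and 1 without TKO replicate 2. The Polycomb counts were 3 without TKO replicate 1 and 3 without TKO replicate 2 for higher genes and 1 without wild type replicate 1, 1 without wild type replicate 2, 0 without TKO replicate 1 and 0 without TKO replicate 2 for lower genes, and the Zfp counts 8 without wild type replicate 1, 10 without TKO replicate 1 and 8 without TKO replicate 2 for higher genes and 8 without TKO replicate 1 and 8 without TKO replicate 2 for lower genes.

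Metabolic lists were compared with the 9.95% of all genes higher and 9.22% lower outside chromosomes 8 and 15. The 94 tested genes of the glycolysis, sterol, redox, and serine and methyl supply lists had 11 (11.7%) higher and 10 (10.6%) lower. Both shares were near those of all genes. Differences in direction between single lists rested on few calls and were not tested. Sterol and fatty acid synthesis genes were lower in 6 of 25 tested and higher in 0 by edgeR, Sc5d, a late sterol desaturase, falling from 39.03 and 48.1 to 24.8 and 25.7 CPM (log2 fold change -0.79). Acly and Scd2 were not called at -0.10 and -0.23 (log2). Glutathione and redox genes were higher in 4 and lower in 1 of 20, Gpx2, a glutathione peroxidase, rising from 2.14 and 2.35 to 6.57 and 6.33 CPM (log2 fold change 1.52). Targets of p53 were higher in 3 and lower in 6 of 26, Perp, a membrane effector of cell death, falling from 147 and 95.5 to 46.4 and 39.8 CPM (log2 fold change -1.49). Cytosolic ribosomal protein genes had 4 higher and 1 lower of 73, and mitochondrial ones 1 and 1 of 73. Glycolysis genes had 4 higher and 1 lower of 25. Upp1, a uridine phosphorylase of the pyrimidine salvage route, was among the 5 called genes with the largest gain per kilobase, from 167 to 308 CPM per kb. The counts moved as follows: lower sterol genes were 2 without TKO replicate 1 and 3 without TKO replicate 2, higher cytosolic ribosomal genes 2 without wild type replicate 1 and 1 without TKO replicate 2, and lower cytosolic ribosomal genes 0 without wild type replicate 1 and 0 without TKO replicate 1. Higher mitochondrial ribosomal genes were 0 without wild type replicate 1, 2 without wild type replicate 2, 0 without TKO replicate 1 and 0 without TKO replicate 2, higher p53 targets 0 without wild type replicate 1, 0 without TKO replicate 1 and 0 without TKO replicate 2, lower p53 targets 3 without TKO replicate 2, and higher glycolysis genes 1 without wild type replicate 1 and 0 without TKO replicate 2. The count of lower mitochondrial ribosomal genes was 0 without any 1 of the 4 libraries, and that of lower glycolysis genes was 0 without wild type replicate 1, 0 without TKO replicate 1 and 0 without TKO replicate 2.

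Some further families are given outside chromosomes 8 and 15, where 9.95% of all genes were higher and 9.22% lower. Collagens apart, semaphorins, ephrins and plexins, which guide axons and cell sorting, had 7 higher and 11 lower of 46 tested, and Sema6a fell from 32.2 and 22.7 to 4.10 and 2.76 CPM (log2 fold change -2.99). Serpins, mostly protease inhibitors, had 3 higher and 7 lower of 19, and Serpinb8 differed by -2.32 and the collagen chaperone Serpinh1 by -1.17 (log2). Claudins, which seal tight junctions, had 2 higher and 5 lower of 13, among them Cldn6 at 175 and 122 against 65.9 and 63.3 CPM and Cldn7 at 42.95 and 32.3 against 18.2 and 17.1 CPM. Solute carriers had 35 higher (12.9%) and 18 lower (6.64%) of 271. Subunits of oxidative phosphorylation had 4 higher and 0 lower of 81 by edgeR, and replication-dependent histones 2 higher and 7 lower of 55. Clustered protocadherins had 1 higher and 1 lower of 34 and Hox genes 0 higher (2 at an unadjusted p below 0.05, 0 by DESeq2) and 1 lower of 13. Counts without single libraries were, for lower semaphorins, ephrins and plexins, 6 without wild type replicate 1 and 6 without TKO replicate 2, for higher serpins 1 without wild type replicate 1, 1 without TKO replicate 1 and 1 without TKO replicate 2, for lower serpins 3 without TKO replicate 2, for higher claudins 1 without wild type replicate 1, 0 without wild type replicate 2, 0 without TKO replicate 1 and 0 without TKO replicate 2, and for lower claudins 3 without wild type replicate 1 and 2 without TKO replicate 2. They were, for higher solute carriers, 17 without wild type replicate 1 and 15 without TKO replicate 2, for lower solute carriers 8 without TKO replicate 1 and 11 without TKO replicate 2, and for oxidative phosphorylation 2 without wild type replicate 1, 2 without TKO replicate 1 and 2 without TKO replicate 2. For higher histones they were 1 without wild type replicate 2, 1 without TKO replicate 1 and 0 without TKO replicate 2, and for lower histones 3 without wild type replicate 1, 4 without wild type replicate 2, 3 without TKO replicate 1 and 1 without TKO replicate 2. For higher protocadherins they were 0 without wild type replicate 1 and 0 without TKO replicate 2, for lower protocadherins 0 without wild type replicate 1, 3 without wild type replicate 2, 0 without TKO replicate 1 and 0 without TKO replicate 2, for higher Hox genes 1 without TKO replicate 1, and for lower Hox genes 2 without TKO replicate 1.

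Genes of the Y chromosome were higher in TKO. Of 8 tested, 6 (75.0%) were higher and 0 lower by edgeR, beside 9.95% and 9.22% of all genes outside chromosomes 8 and 15. The median log2 fold change of the 8 was 1.45 in DMSO and 1.76 in TSA. Usp9y, a deubiquitinase, stood at 0.642 and 1.22 CPM in wild type and 21.3 and 19.3 in TKO (log2 fold change 4.46). The demethylase gene Kdm5d stood at 1.78 and 3.24 against 21.5 and 21.6 CPM and the helicase gene Ddx3y at 96.7 and 169.8 against 285 and 279 CPM (log2 fold changes 3.12 and 1.08). Eif2s3y, a translation initiation subunit, was not called at 152 and 174 against 203 and 179 CPM. The wild type libraries also differed from each other, replicate 1 being lower for Kdm5d, Usp9y and Ddx3y. Without each library in turn, 4 to 7 were higher.

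Chromosome 8 was lower only in stretches, not as a whole. Of its 831 tested genes 60 (7.22%) were higher and 245 (29.5%) lower, at a median log2 fold change of -0.20. Along 21 windows of about 40 tested genes, the first window (chr8:3150922-11563250) and the last 8 windows (chr8:92961047-129234003) had medians below -0.3, and the 12 windows between had none. In the 352 genes of these 9 windows the median was -0.56, a ratio of 0.676, with 202 (57.4%) lower and 6 (1.7%) higher. In the 479 genes between (chr8:11611583-92919279) the median was 0.005, with 54 (11.3%) higher and 43 (8.98%) lower, near the shares elsewhere. The lower windows had medians between -0.60 and -0.49 relative to other genes in each of the 4 pairs of a TKO and a wild type library, and -0.57 in TSA. These stretches were found in the same data and are given without a test. When the lower windows and chromosome 15 were centred on the other genes, an alternative chosen after seeing the data, 10.8% of chromosome 8 genes were higher and 8.54% lower.

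Levels of some abundant genes of chromosome 8 are given by position. Cox4i1 (chr8:120668290-120674209), a respiratory chain subunit in the lower stretch, held 599 and 551 CPM in wild type and 388 and 418 in TKO (log2 fold change -0.51, and 0.061 once the lower windows and chromosome 15 were centred on the other genes). In the stretch between, Calr (chr8:84842088-84846931), a chaperone, held 1067 and 941 CPM in wild type and 1071 and 888 in TKO and Slc25a4 (chr8:46207341-46211009), the ADP/ATP carrier, 616 and 550.3 and 518 and 497, and neither was called. Zfp42 (Rex1, chr8:43295067-43307009), a naive pluripotency marker in the same stretch, rose from 519 and 667 to 862 and 1014 CPM. Some genes of the lower stretches moved well beyond the median of their stretch. Acta1 (chr8:123891758-123894775), the skeletal alpha actin, fell from 27.4 and 13.4 to 1.64 and 0.946 CPM (log2 fold change -3.97), and Maf, a leucine zipper factor, had 32 and 20 counts in wild type and 2 and 2 in TKO. Dpep3 (chr8:105973520-105979419), a testis dipeptidase, rose in the lower stretch from 0.214 and 0.324 to 3.35 and 3.20 CPM (log2 fold change 3.58). In the stretch between, Tktl2, a transketolase paralog of testis, rose from 1.71 and 2.67 to 20.5 and 17.5 CPM and Ushbp1, a harmonin partner, from 1.64 and 2.59 to 16.6 and 20.7 CPM (log2 fold changes 3.12 and 3.15). Dusp4, an ERK phosphatase between the stretches (chr8:34807610-34819894), fell from 113 and 79.6 to 32.8 and 27.9 CPM (log2 fold change -1.67). Without wild type replicate 1 the edgeR adjusted p was 0.165 for Zfp42, and without TKO replicate 2 the edgeR adjusted p was 0.160 for Zfp42.

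Chromosome 15 was lower along its whole length by a smaller amount. Of 628 tested genes 34 (5.41%) were higher and 129 (20.5%) lower, at a median of -0.21, a ratio of 0.862, and -0.15 in TSA. All 16 windows had a median below 0, from -0.46 to -0.071, and the 4 pairs of libraries gave -0.24 to -0.17 relative to other genes. After the same centring, 10.5% of its genes were higher and 8.44% lower. The translation genes Rpl8, Eif4b and Eif3l and the chaperonin subunit Cct5, the most abundant per kilobase, had log2 fold changes of -0.20, -0.21, -0.23 and -0.17, and none was called. The falls beyond that level included the keratin pair of simple epithelia. Krt8 (chr15:101996711-102004342) fell from 366 and 216 CPM to 24.01 and 36.7 (log2 fold change -3.26 ± 0.29 SE, edgeR adjusted p = 3.64e-05), and its partner Krt18 (chr15:102028216-102032026) from 351 and 247 CPM to 28.4 and 38.8 (log2 fold change -3.15 ± 0.25 SE, edgeR adjusted p = 1.68e-05). Against the chromosome, Smc1b (chr15:85064689-85131957), a meiotic cohesin, rose from 4.35 and 16.9 to 51.6 and 58.8 CPM (log2 fold change 2.40), and the imprinted RNA gene Peg13 from 4.99 and 5.19 to 11.97 and 13.1 CPM (log2 fold change 1.30). Of 15 germline genes tested on chromosomes 8 and 15 together, 7 were higher and 2 lower. The shares of all genes were 7.22% and 29.5% on chromosome 8 and 5.41% and 20.5% on chromosome 15.

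**Figure D5:**
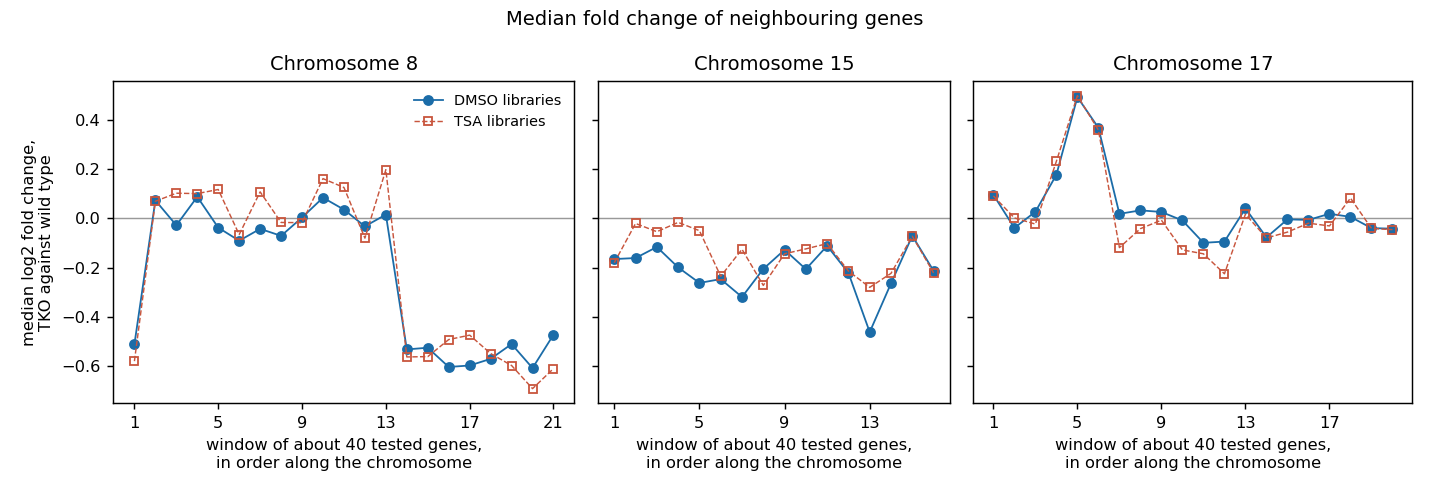
Median log2 fold change, TKO against wild type, of consecutive windows of about 40 tested genes along chromosomes 8, 15 and 17, for DMSO (filled circles) and TSA (open squares) libraries. Chromosome 8 is low in its first and last 8 windows and near 0 between, chromosome 15 is slightly below 0 throughout, and chromosome 17 is high in windows 5 and 6.

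Outside chromosomes 8 and 15, window medians ran from -0.32 to 0.78, with 3 of 359 below -0.3. On chromosome 17, 78 tested genes in 2 neighbouring windows (chr17:24693191-26776626) had a median of 0.42 in DMSO and 0.44 in TSA, and 35 (44.9%) were higher and 0 lower by edgeR (1 lower at an unadjusted p below 0.05, 0 by DESeq2). These windows were found in the same data by their high medians, so the share called higher partly follows from that choice. They are given without a test. Relative to other genes, pairs of a TKO and a wild type library gave medians from 0.31 to 0.54 (log2). The median difference was 0.19 between the wild type replicates and -0.018 between the TKO replicates. Ndufb10, a subunit of respiratory complex I at chr17:24722067-24724388, rose from 61.1 and 52.8 to 90.1 and 100.2 CPM (log2 fold change 0.74). The 702 other tested genes of chromosome 17 had a median of -0.018, with 61 (8.69%) higher and 56 (7.98%) lower.

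Genes that were near silent in 1 genotype made up a small share of the calls. Of 496 tested genes outside chromosomes 8 and 15 with at most 3 counts in each wild type library, 84 (16.9%) were called higher, beside 9.95% of all genes there. On the X, 28 of 65 such genes (43.1%) were higher. In the other direction, 48 of 404 genes (11.9%) with at most 3 counts in each TKO library were called lower. Over all chromosomes these counts were 94 and 54. The first fell to 38 without wild type replicate 1 and 48 without TKO replicate 2, and the second to 22 without wild type replicate 1, 25 without TKO replicate 1 and 19 without TKO replicate 2. Pcdh11x, an X-linked protocadherin of neurons, had 34 and 14 counts in wild type and 0 and 0 in TKO, at least 8.41-fold lower, and Ifi202b, an interferon-inducible gene, 11 and 23 in wild type and 0 and 0 in TKO, at least 6.26-fold lower. A filter on the 8 libraries lets such genes in through any group where they are present, so these shares describe the tested genes only.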

How the data were processed

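Total RNA of J1 wild type and triple knockout embryonic stem cells was depleted of ribosomal RNA and sequenced as 51 bp pairs with a directional kit, per the labels' protocols. The authors deposited 1 table of raw read counts per gene over 23420 genes and 8 libraries, with the summed exon length of each gene in bases (a column of another unit), per the file headers. The submitters' processing notes name TopHat2 2.0.13, featureCounts 1.4.5-p1, edgeR 3.22.3 and mm10. Their order, the annotation, the strand setting and how reads with several alignments were counted are not given in the sources used here. Reads of overlapping genes and near-identical copies can therefore be shared or lost, and 27 symbols in the table look like dates.

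Counts were filtered with filterByExpr, scaled by TMM and fitted with edgeR 4.0.16 (R 4.3.3) quasi-likelihood over the 4 groups of 8 libraries without covariates, which left 4 residual degrees of freedom and a biological coefficient of variation of 10.3%. Genes with a Benjamini-Hochberg adjusted p below 0.05 were called. CPM are counts scaled by the library total and the TMM factor, and sums of the table per library give depths of 13280631 to 15542527. A count of 3 corresponds to 0.193 to 0.226 CPM before scaling. Replicates differed beyond sampling noise (chi-square per degree of freedom 13.0 in wild type and 5.58 in TKO). On simulated counts for 15624 genes of the DMSO contrast, 74% of 100 genes changed 2-fold and 86% of 100 changed 4-fold were recovered, with 6 false calls. The simulated counts took the same trended dispersion in every group, without the unequal spread of the real replicates. Recovery and false calls in the real data may therefore be worse.

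The members and the 36 lists and 30 families (924 of 945 listed symbols found) were chosen with earlier results of these data known. Named genes are the targeted genes, the called genes with the largest changes by fold, per kilobase and on chromosomes 8 and 15, and from each list at most 6 called members by size of change and 2 uncalled members by level per kilobase. Called genes picked by fold or from a list also needed a mean of at least 1 CPM in the higher group. Their TKO and wild type DMSO libraries could not overlap, so that separation follows from the choice. In lists with at most 6 tested genes every member was named. Suv39h1 and Twist1 were named after their values were seen, as were Fap, Mmp3, Meg3 and Rian. Not every named gene is reported here. Windows held about 40 consecutive tested genes. Alternatives were other scalings, filters, DESeq2 1.42.0, fits without each library, a replicate block and centring of chromosomes 8 and 15.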

Additional observations from a re-analysis of the deposited data

Results flagged for a closer look

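For 25 of the named genes reported here, the difference between TKO and wild type was not the same in TSA as in DMSO by the interaction term of the edgeR model, at adjusted p-values from 0.00135 to 0.0476. Only named genes among the 299 called in DMSO were examined, and many were chosen for the size of their change there. Such a choice favours smaller differences in TSA, so the direction of these values was not tested. The share of all tested genes with such an interaction is not given here. Values are the TKO effect in TSA minus that in DMSO on the log2 scale. A positive value marks a smaller fall, a larger rise or a turn from a fall to a rise under TSA.

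Among contractile, matrix and fibroblast genes, the fall was smaller under TSA for Cav1 (4.02), Tnc (4.58), Col3a1 (4.41), Thbs1 (3.51), Col1a1 (3.05) and Anxa3 (2.11). For Thbs1 the log2 fold change was -4.05 in DMSO and -0.54 in TSA. The imprinted genes Grb10 (1.70) and Nnat (1.77) differed in the same way, while Cdkn1c (1.55) went from -1.20 in DMSO to 0.35 in TSA. Among germline genes, the values were -2.83 for Nxf2, -1.58 for Stk31 and 1.91 for Rbm46, and the pluripotency gene Prdm14 had -1.47.

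The remaining genes were Dnmt3b (1.33), the neural genes Nes (1.44) and Gap43 (-2.57), H2-Q4 (1.55), Jun (1.15), Eno3 (-1.07), Gsto1 (0.97), Pramef8 (0.84), Zfp608 (1.43), Sema6a (1.66), Slc39a8 (1.93) and Slc25a24 (1.60). Gap43 fell further under TSA, from -1.46 to -4.03 on the log2 scale. For Cav1 and Col3a1 the TKO counts in DMSO were 3 or fewer per library, so their fitted values depend on the prior count.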

How the results depend on the processing

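None of the 3221 genes was called in the opposite direction under the alternatives below. The total was 2844 with only the 4 DMSO libraries, 2750 by DESeq2, 3436 without a filter on low counts and 1363 when a 2-fold change was also required. Another scaling gave 3205 to 3219 calls, and the share of higher calls rose from 47.3% to at most 52.2%. Leaving out 1 library gave 1458 to 3330 calls (641 to 1546 higher, 817 to 1784 lower) and 813 to 1513 calls of at least 2-fold. It gave 38 to 79 near-silent genes higher and 19 to 63 lower, 8 to 12 imprinted, 4 to 13 naive, 5 to 8 Xlr and 4 to 9 Rhox genes higher, and 5 to 11 Wnt and 2 to 6 MHC class I genes lower. The cause was not tested. With only the 4 DMSO libraries 57 near-silent genes were higher and 24 lower, and by DESeq2 34 were lower. Of 299 named called genes, 164 kept their call under every alternative and 135 lost it under at least 1.

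The chromosome 15 median ran from -0.25 to -0.17 without single libraries, and that of the lower windows of chromosome 8 from -0.59 to -0.52. Without a filter, chromosome 8 had -0.094 and chromosome 15 -0.15. Centring both chromosomes sets their medians by construction, to 0.0090 and 0.0091, and left the lower windows at -0.36. Centring only those windows and chromosome 15, chosen after seeing the data, gave 0.0046, 0.0091 and 0.0083, and turned Cox4i1 to 0.061, Rpl13 to 0.23 and Ddx19a to 0.20.

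Both groups carry replicate numbers 1 and 2, which the labels do not tie to a shared culture or day. With the replicate block 4217 genes were called (2025 higher, 2192 lower), the 3221 among them, and the deviations of same-numbered libraries correlated at r = 0.27. Fits without a library leave 1 sample in a group, which is assumed to vary like the others. Depth limits calls for genes near 3 counts.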
